A study of Mus musculus with 40 samples.

Results

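The genes Parp1, Parp3, Parp8, Parp9, Parp10, Parp11, Parp12, Parp14, Dtx3l and Rnf213 were followed through 10 groups of cultured mouse oligodendrocyte-lineage cells. All 10 of these genes were among the 39056 gene identifiers of the count table, and all 10 were among the 15135 genes that passed the filter on low counts. The genes were selected on measured values of these same libraries, namely a strong and uniform difference between interferon-gamma (IFN-gamma) and untreated cells, with Parp1 as a constitutive comparator. IFN-gamma values of the 10 genes are therefore given as a description without a test. Tests were kept for thapsigargin and for untreated cells over time, which use the same untreated libraries as the IFN-gamma comparisons. With only the groups compared, Parp10 fell below the filter on low counts in each of those tests, and Parp14 in most. Their values there are best read as a description.

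Cells came from wild-type C57BL/6 pups aged 6 to 7 days. Progenitors were immunopanned from cortex (the labels give the tissue as whole brain), passaged, allowed to differentiate for 12 to 14 hours and then assigned at random by plate. The groups were IFN-gamma at 200 U/ml for 1, 8, 24 and 48 h, thapsigargin at 200 uM for 1 and 8 h, and untreated cells collected at 1, 8, 24 and 48 h, with 4 libraries in each group. All groups share genotype, strain, purification and culture. The labels do not say whether libraries of a group came from separate animals or cultures. After 8 h of IFN-gamma, Y-linked genes summed to 7.28, 316, 0.661 and 311 CPM in the 4 libraries, so these did not all hold the same mix of cells. How many animals or cultures a group stands for is not given, and part of the spread between libraries may be technical.

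Poly(ADP-ribose) polymerases (PARPs) transfer ADP-ribose from NAD to proteins. Parp1 builds long chains at broken DNA, whereas most of the other family members studied here attach single ADP-ribose units. Parp9 works in a complex with the Deltex-type ubiquitin ligase Dtx3l, and Rnf213 is a giant ubiquitin ligase with ATPase modules. IFN-gamma signals through JAK kinases to the nucleus, where gamma-activated sites (GAS) in DNA are bound early and factors of the Irf family bind interferon-stimulated response elements (ISRE). Thapsigargin blocks the pump that fills the endoplasmic reticulum with calcium, and so causes endoplasmic reticulum stress.

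Reads assigned to genes ranged between 13165483 and 22651092 per library. Levels are CPM, a gene's reads divided by the library's total reads, on the usual scale of that unit, with totals adjusted by trimmed mean of M-values (TMM) factors. All 7 lineage markers used, among them Pdgfra, Olig2 and Sox10, were read in every group, with summed levels between 2598 and 7029.8 CPM per library. The 8 markers of microglia and macrophages summed to at most 5.26 CPM in any library. In IFN-gamma 1 h replicate 2, which stood apart, 2 features that contain ribosomal RNA took up 27.4% of the reads, against at most 8.88% in any other library. In 10 libraries, 2 in each IFN-gamma group and 1 in each thapsigargin group, Y-linked genes summed to less than 50 CPM. Left out, these moved 1 of the 40 IFN-gamma differences of the 10 genes by more than the spread between replicates.

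Of the 10 genes, 8 were far higher in IFN-gamma-treated cells from 8 h on: Parp9, Dtx3l, Parp14, Parp10, Parp12, Parp3, Parp11 and Rnf213. For each of these 8, the lowest library at 8, 24 or 48 h of IFN-gamma lay above the highest of all other libraries; 2.91% of all genes tested had that separation. Parp1 and Parp8 did not show it. Parp8 therefore goes against the description under which it was chosen. Differences below are log2 fold changes of IFN-gamma over untreated cells at the same time. Fewer expressing cells and less RNA per cell cannot be told apart in these bulk libraries.

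**Figure D1:**
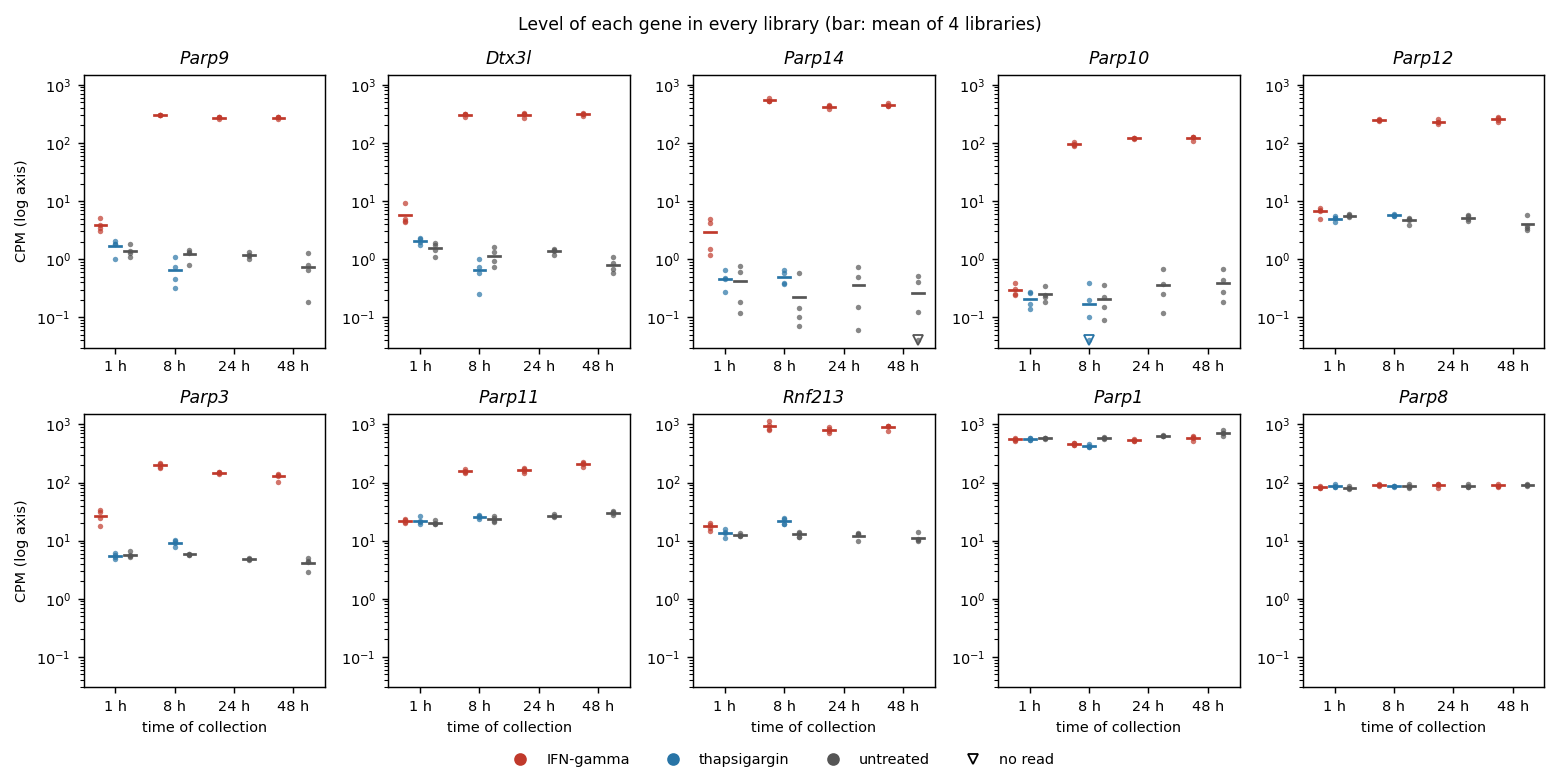
Levels of the 10 genes in every library, in CPM on a log axis, by time of collection and treatment; each point is 1 library, bars are means and triangles mark libraries with no read. Parp9, Dtx3l, Parp14, Parp10, Parp12, Parp3, Parp11 and Rnf213 are separated from all other groups at 8, 24 and 48 h of IFN-gamma, while the group means of Parp8 stay between 80.9 and 91.0 CPM.

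Parp9 (ENSMUSG00000022906.15, chromosome 16), a macrodomain protein that binds ADP-ribose, had 297, 302, 308 and 304 CPM after 8 h of IFN-gamma, against 1.30, 1.33, 0.810 and 1.43 CPM in untreated 8 h cells. The difference was 7.93 at 8 h, 7.85 at 24 h and 8.46 at 48 h. The IFN-gamma libraries were tightly grouped, with coefficients of variation between 1.43% and 3.68% at 8, 24 and 48 h. At 1 h the 4 IFN-gamma libraries had 3.06, 3.87, 5.14 and 3.39 CPM, against 1.08, 1.81, 1.26 and 1.38 CPM in untreated cells. The groups did not overlap at that hour, yet the IFN-gamma level was 1.28% of its 8 h mean.

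Dtx3l (ENSMUSG00000049502.16, chromosome 16), the ubiquitin ligase that partners Parp9, had 284, 312, 319 and 313 CPM after 8 h of IFN-gamma, against 1.60, 1.33, 0.737 and 0.928 CPM in untreated 8 h cells. Its differences of 7.99, 7.76 and 8.56 at 8, 24 and 48 h lay close to those of Parp9. At 1 h Dtx3l had 4.57, 4.43, 9.15 and 4.88 CPM with IFN-gamma, against 1.73, 1.90, 1.44 and 1.08 CPM untreated. All 4 treated libraries were above the untreated ones, and replicate 3 stood above the other treated libraries. In the GENCODE M21 annotation (GRCm38), Parp14, Dtx3l and Parp9 are consecutive protein-coding genes. Exons of Dtx3l and Parp9 overlap on opposite strands by 458 bases, which are 8% of the exon bases of Dtx3l and 9.4% of those of Parp9. Whether the counting used strand is not given in the sources used here, so reads from that stretch cannot be told apart.

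Parp14 (ENSMUSG00000034422.14, chromosome 16), a large macrodomain-containing mono-ADP-ribosyltransferase, had the largest difference of the 10 genes. It had 530.7, 588, 535 and 532 CPM after 8 h of IFN-gamma, against 0.10, 0.577, 0.147 and 0.0714 CPM in untreated 8 h cells. Those untreated levels rest on 18 reads in all 4 libraries together, 13 of them in replicate 2, so the size of the difference of 11.03 is poorly fixed. It was 10.58 within the lower 20 library numbers of the labels and 12.17 within the upper 20. At 24 and 48 h the differences were 10.10 and 10.56. At 1 h the treated libraries had 1.51, 1.19, 4.97 and 4.17 CPM, against 0.605, 0.770, 0.180 and 0.120 CPM untreated. Each treated library was above each untreated one, but the difference of 2.72 was 0.97 within the lower library numbers and 4.88 within the upper.

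Parp10 (ENSMUSG00000063268.12, chromosome 15), also a mono-ADP-ribosyltransferase, was nearly silent without IFN-gamma. It had 93.8, 89.1, 94.1 and 103.4 CPM after 8 h of IFN-gamma, against 0.150, 0.0888, 0.221 and 0.357 CPM in untreated 8 h cells. The untreated values rest on 13 reads in all. The differences were 8.94, 8.29 and 8.24 at 8, 24 and 48 h. At 1 h the treated libraries, with 0.251, 0.312, 0.389 and 0.238 CPM, overlapped the untreated 1 h libraries, which ranged between 0.180 and 0.345 CPM. Parp10 thus had, at 0.313%, the smallest 1 h level relative to its 8 h level among the 8 induced genes. Its exons share 205 bases with the neighbouring gene Plec on the same strand, 4.8% of its exon bases.

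Parp12 (ENSMUSG00000038507.6, chromosome 6), a zinc-finger PARP, had 262, 251, 237 and 247 CPM after 8 h of IFN-gamma, against 4.76, 5.02, 3.83 and 4.997 CPM in untreated 8 h cells. Its differences were 5.73, 5.47 and 5.96 at 8, 24 and 48 h. At 1 h the values were 6.73, 4.997, 7.64 and 7.09 CPM with IFN-gamma, against 5.48, 5.39, 5.89 and 5.77 CPM untreated. The groups overlapped at 1 h: IFN-gamma replicate 2 was the lowest of all 8 libraries and the other 3 treated libraries were above all untreated ones.

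Parp3 (ENSMUSG00000023249.15, chromosome 9), which like Parp1 acts at DNA breaks, was the gene with the highest 1 h level over its untreated level apart from Parp14, and from far more reads. At 1 h it had 24.1, 18.2, 34.3 and 30.5 CPM with IFN-gamma, against 5.44, 5.66, 6.67 and 5.23 CPM in untreated cells, a difference of 2.22. Each treated library was well above the untreated ones, and the mean was already 13.6% of the 8 h mean. After 8 h it had 176, 182, 209.5 and 219 CPM with IFN-gamma, against 5.56, 5.91, 5.97 and 5.71 CPM untreated. Later levels were lower, at 148 ± 4.39 CPM at 24 h and 127 ± 17.5 CPM at 48 h of IFN-gamma (SD, n = 4), 0.646 times the 8 h mean at 48 h. The differences from untreated cells were 5.09, 4.93 and 4.91 at 8, 24 and 48 h; the untreated level was also lower at 48 h.

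Rnf213 (ENSMUSG00000070327.14, chromosome 11) reached the highest CPM of the 10 genes and is also by far the longest of them. It had 985, 1126, 809 and 842 CPM after 8 h of IFN-gamma, against 11.7, 13.5, 11.6 and 14.3 CPM in untreated 8 h cells. The differences were 6.20, 6.03 and 6.32 at 8, 24 and 48 h. At 1 h it had 14.9, 19.9, 16.5 and 18.8 CPM with IFN-gamma, against 11.9, 12.4, 13.8 and 12.0 CPM untreated, a difference of 0.49 with no overlap. It had the widest relative spread in treated cells of the 8 induced genes, with coefficients of variation between 8.53% and 15.5% at 8, 24 and 48 h. Exons of the opposite-strand gene A930037H05Rik cover 8.74% of its exon bases.

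Parp11 (ENSMUSG00000037997.12, chromosome 6), a mono-ADP-ribosyltransferase, had the smallest difference of the 8 and the highest starting level apart from Parp1 and Parp8. It had 171, 158, 147 and 150.5 CPM after 8 h of IFN-gamma, against 24.8, 26.2, 20.8 and 21.7 CPM in untreated 8 h cells. At 1 h the values were 23.2, 20.7, 22.5 and 20.4 CPM with IFN-gamma, against 20.04, 22.2, 19.1 and 19.1 CPM untreated, and the groups overlapped. Later levels of Parp11 were higher, at 157 ± 10.8, 162 ± 11.8 and 210 ± 19.9 CPM at 8, 24 and 48 h of IFN-gamma (SD, n = 4). The 48 h libraries lay above all 8 and 24 h libraries. The differences were 2.74, 2.61 and 2.80 at 8, 24 and 48 h, and untreated Parp11 was also higher at later times.

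The isoform table, which holds estimated counts per transcript, separates 2 transcription starts of Parp11 that RefSeq also lists. Parp11-202 begins at the upstream start, and 5 other transcripts begin within 100 bases of the downstream start, the first of them 6780 bases from the upstream one. The upstream start held 25.4% ± 10.2, 59.3% ± 1.59, 57.3% ± 4.66 and 61.5% ± 2.15 of the gene's estimated count at 1, 8, 24 and 48 h of IFN-gamma (SD, n = 4). In untreated cells the means were 8.44%, 9.71%, 2.33% and 9.0% at the same times, with single libraries between 0% and 24.2%. In thapsigargin-treated cells they were 0.950% at 1 h and 3.36% at 8 h. The treated and untreated libraries did not overlap at 8, 24 or 48 h.

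At 8, 24 and 48 h both starts yielded more transcript in IFN-gamma-treated cells, the upstream start by far the more. In CPM of the estimated counts, without TMM scaling, the upstream start had 73.7 ± 3.09 after 8 h of IFN-gamma and 2.05 ± 2.35 in untreated 8 h cells (SD, n = 4). The downstream start had 41.2 ± 4.04 after 8 h of IFN-gamma and 19.3 ± 3.87 in untreated 8 h cells (SD, n = 4). At 48 h the upstream start had 108 ± 12.1 with IFN-gamma and 2.53 ± 2.66 without, and the downstream start 50.9 ± 4.32 with and 23.9 ± 2.24 without. At 1 h the downstream start was not higher, at 12.5 ± 4.74 with IFN-gamma and 16.4 ± 2.25 without, while the upstream start had 4.39 ± 1.74 and 1.52 ± 1.22. These are divisions of shared reads by the authors' software, and a transcript's share can shift with that division.

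**Figure D2:**
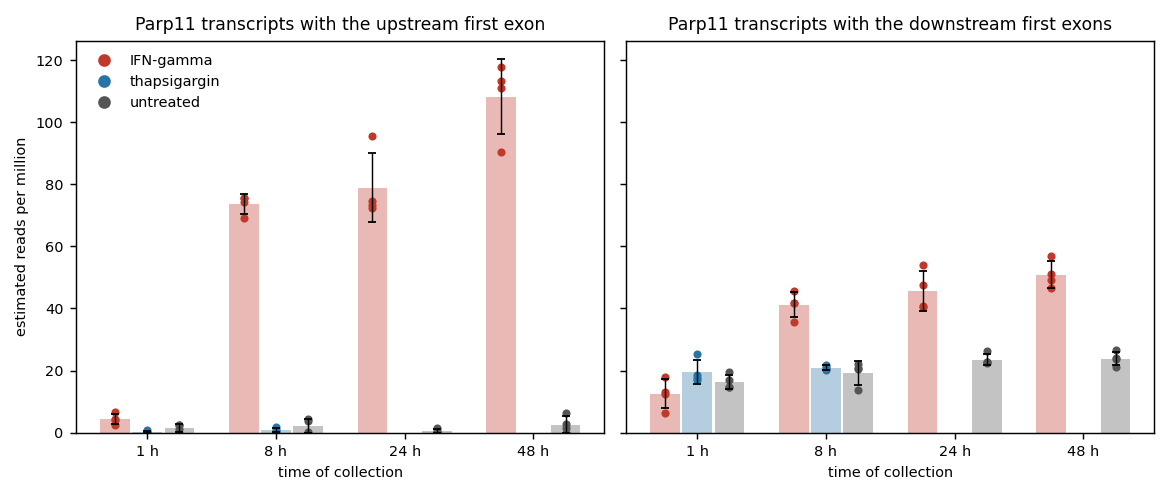
CPM of the estimated counts, without TMM scaling, of Parp11 transcripts from the upstream and the downstream start, by group; bars are means, points are the 4 libraries and error bars are the SD. The upstream start has 73.7 after 8 h of IFN-gamma and 2.05 in untreated 8 h cells, while the downstream start has 41.2 and 19.3.

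The stretches before these starts are shown because the 2 starts differ in these data. They are from RefSeq (GRCm38.p6, plus strand, chr6:127446590-127446829 and chr6:127453377-127453616), each 240 bases that end 11 bases before the start. Capitals mark letters that match a GAS-type motif, TTCNNNGAA, or an ISRE-type motif (GAAA, any 2 bases, GAAA), both searched on either strand.
Parp11 upstream start: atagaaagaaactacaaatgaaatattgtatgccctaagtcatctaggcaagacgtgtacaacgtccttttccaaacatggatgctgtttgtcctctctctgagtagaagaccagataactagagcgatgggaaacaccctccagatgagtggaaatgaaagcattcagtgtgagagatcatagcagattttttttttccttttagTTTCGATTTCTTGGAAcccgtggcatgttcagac
Parp11 downstream start: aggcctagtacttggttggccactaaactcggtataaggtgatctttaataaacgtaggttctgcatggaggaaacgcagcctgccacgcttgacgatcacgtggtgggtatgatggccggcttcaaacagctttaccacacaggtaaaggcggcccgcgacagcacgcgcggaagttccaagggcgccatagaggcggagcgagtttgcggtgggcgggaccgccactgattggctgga
In the upstream stretch the ISRE-type match, TTTCGATTTC as read on this strand, lies at positions -44 to -35 from the start and overlaps the GAS-type match TTCTTGGAA at -37 to -29. The downstream stretch holds neither. Of 32851 RefSeq windows of 300 bases, 8.3% hold the GAS-type letters, 3.44% the ISRE-type letters, 0.454% both and 0.0731% an overlapping pair. Windows were found for 7 of the 10 genes, 8 windows in all, and the upstream Parp11 window was the only one of them with either motif. Other PARP-family genes had such letters at a like rate. Of 8 of these, 7 had a window, 1 with the GAS-type letters (Parp16) and 1 with the ISRE-type letters (Parp4). A match is a description of letters and does not show that a factor binds.

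**Figure D3:**
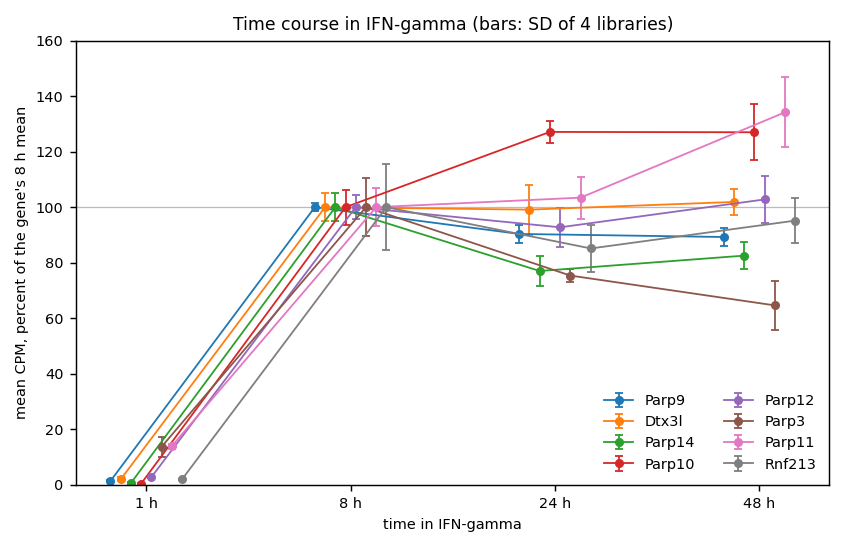
Mean level of the 8 induced genes over 1, 8, 24 and 48 h of IFN-gamma, as a percent of each gene's 8 h mean, with bars for the SD of 4 libraries. At 48 h Parp3 is at 0.646 times its 8 h mean, while Parp10 is at 1.27 times and Parp11 at 1.34 times.

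The 8 induced genes therefore differed in their time courses. The ratio of the 48 h to the 8 h IFN-gamma mean was 0.646 for Parp3, 0.825 for Parp14, 0.892 for Parp9, 0.951 for Rnf213, 1.02 for Dtx3l, 1.03 for Parp12, 1.27 for Parp10 and 1.34 for Parp11. Among the IFN-gamma groups from 8 h on, the 3 levels overlapped in library values for Dtx3l, Parp12 and Rnf213. For Parp9, Parp14 and Parp3 the 8 h group stood above both later groups, which overlapped each other. For Parp10 the 24 and 48 h groups overlapped and stood above 8 h, and for Parp11 the 8 and 24 h groups overlapped below 48 h.

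Parp1 (ENSMUSG00000026496.11, chromosome 1), the constitutive comparator, was not flat. It had 444, 444, 484 and 481 CPM after 8 h of IFN-gamma, against 604, 583.5, 566 and 589 CPM in untreated 8 h cells. All treated libraries were below all untreated ones, a difference of -0.34, and the differences were -0.25 at 24 h and -0.29 at 48 h. Its highest group mean was 711 ± 65.8 CPM in untreated 48 h cells and its lowest 423 ± 23.2 CPM after 8 h of thapsigargin (SD, n = 4). Parp8 (ENSMUSG00000021725.8, chromosome 13), a little-studied mono-ADP-ribosyltransferase, was the flattest gene of the set with IFN-gamma. It had 91.0 ± 2.03 CPM after 8 h of IFN-gamma and 86.8 ± 5.91 CPM in untreated 8 h cells (SD, n = 4), and its differences lay between -0.03 and 0.07 across the 4 times. In the order of its 10 group means every neighbouring pair of groups overlapped, but groups further apart did not all overlap. Its untreated 48 h libraries lay above its untreated 1 h libraries.

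The threshold used for all genes was an adjusted p below 0.05 in edgeR's quasi-likelihood test. At 1, 8, 24 and 48 h of IFN-gamma, 1.29%, 25.2%, 23.1% and 36.8% of all genes passed. No such count is read for the 10 genes, which were chosen on these values. At 8, 24 and 48 h the 8 induced genes were higher and Parp1 was lower. Summed markers of other cell types also differed: the 5 astrocyte markers summed to 231 to 261 CPM after 8 h of IFN-gamma, against 108 to 142 CPM in untreated 8 h cells. The 4 neuronal markers summed to 293 to 348 CPM, against 58.2 to 71.7 CPM. The microglia and macrophage markers summed to 3.09 to 4.37 CPM, against 1.33 to 2.31 CPM, with no read on Aif1 or Csf1r in any 8 h IFN-gamma library. Each sum was mostly a single gene at 8 h of IFN-gamma: Slc1a3 (mean 229 CPM), Tubb3 (294 CPM) and P2ry12 (3.51 CPM). The other astrocyte markers, Gfap, Aqp4, Aldh1l1 and Gja1, had their highest means in untreated 48 h cells, so the astrocyte set did not rise as a whole. What part these marker differences have in the values of the 10 genes was not tested.

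Compared per length of exon sequence, all 8 induced genes stayed below Parp1 at 8 h of IFN-gamma in mean level. At 8 h of IFN-gamma the level in CPM per kilobase of exon union was 62.4 for Parp12, 62.1 for Parp9, 58.7 for Parp14, 55.7 for Rnf213, 53.6 for Dtx3l and 53.1 for Parp3, against 87.5 for Parp1. Parp11, at 22.3, and Parp10, at 22.2, were lower, and Parp8 was at 10.2. Per kilobase of the longest transcript the order within the first set changed, with Parp9 at 85.3, Parp12 at 77.1, Parp14 at 73.7, Parp3 at 66.4, Dtx3l at 57.8 and Rnf213 at 56.3, against 120 for Parp1.

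Transcript shares of other genes also differed between groups. Parp3-207, a retained-intron transcript, held 36.1% of the estimated Parp3 count after 1 h of IFN-gamma (34.4% to 38.2% by library), against 17.2% in untreated 1 h cells (7.70% to 25.7%), and 13.2% after 8 h of IFN-gamma. The Parp14 retained-intron transcript Parp14-203 held 2.86% after 8 h of IFN-gamma, against 45.9% of only 11.4 estimated reads per untreated library. The shorter Dtx3l transcript, Dtx3l-202, held 1.79% after 8 h of IFN-gamma, against 49.6% in untreated 8 h cells, where the gene had 57.2 estimated reads per library. With so few reads in untreated cells these shares are loosely fixed. Parp1-201 held about all of Parp1, at 98.9% in untreated 1 h cells.

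Thapsigargin was the treatment that the choice of genes did not use. For the 8 induced genes its log2 fold changes at 8 h were small beside those of IFN-gamma. Since the genes were chosen for large IFN-gamma values, that gap follows in part from the choice. For Parp1 the change at 8 h was -0.47 with thapsigargin and -0.34 with IFN-gamma. After 1 h, 0 of the 10 genes passed the test in edgeR or DESeq2, where edgeR called 8.79% of all genes, and 0 had an unadjusted p under 0.05. After 8 h, 2 genes rose (Parp3 and Rnf213), 3 fell (Parp1, Parp9 and Dtx3l) and 5 did not pass, where 60.6% of all genes passed. A share of 5 in 10 is near that background. The 10 include Parp10 and Parp14, which met the low-count filter only through their IFN-gamma levels. The median log2 fold change was 0.07 over the 10 genes and -0.01 over all genes tested.

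Parp3 had 9.85, 7.90, 9.14 and 10.2 CPM after 8 h of thapsigargin, against 5.56, 5.91, 5.97 and 5.71 CPM in untreated 8 h cells. The groups did not overlap, and the log2 fold change was 0.68 ± 0.15 (SE; adjusted p = 1.75e-04, edgeR). Rnf213 had 19.3, 19.2, 23.5 and 24.1 CPM after 8 h of thapsigargin, against 11.7, 13.5, 11.6 and 14.3 CPM untreated, again without overlap, at 0.75 ± 0.13 (SE; adjusted p = 4.40e-06, edgeR). After 8 h of IFN-gamma the same genes had means of 197 and 940 CPM. Parp1 fell, with 406, 408, 456 and 420.1 CPM after thapsigargin, against 604, 583.5, 566 and 589 CPM untreated, at -0.47 ± 0.06 (SE; adjusted p = 1.52e-08, edgeR). These 3 calls held under the 10 alternatives tried and with each library left out in turn.

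Parp9 and Dtx3l, the partners, both fell, on counts of 5 to 32 reads per library. Parp9 had 1.11, 0.747, 0.322 and 0.459 CPM after 8 h of thapsigargin, against 1.30, 1.33, 0.810 and 1.43 CPM untreated, at -0.84 ± 0.31 (SE; adjusted p = 0.0189, edgeR). Dtx3l had 0.253, 1.01, 0.579 and 0.722 CPM, against 1.60, 1.33, 0.737 and 0.928 CPM, at -0.91 ± 0.33 (SE; adjusted p = 0.0157, edgeR). Library values overlapped in both genes. The Parp9 call was lost without untreated 8 h replicate 2 or 4 (-0.76 and -0.75) and without thapsigargin 8 h replicate 3 or 4 (-0.61 and -0.68), with adjusted p up to 0.1 in edgeR. The Dtx3l call was lost without untreated 8 h replicate 1 or 2 (-0.69 and -0.81) and without thapsigargin 8 h replicate 1 (-0.58), with adjusted p up to 0.126 in edgeR. In the isoform table Dtx3l was at -0.23 (adjusted p = 0.338, edgeR).

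The other 5 genes did not pass. Parp12 was at 0.28 ± 0.13 (SE; adjusted p = 0.0658, edgeR) and passed, at 0.35 and 0.34, without untreated 8 h replicate 2 or 4. Parp14, at 0.97 ± 0.72 (adjusted p = 0.251, edgeR), had 0.657, 0.374, 0.386 and 0.591 CPM after thapsigargin, against 0.10, 0.577, 0.147 and 0.0714 CPM untreated. Without untreated 8 h replicate 2, the one high untreated library, it was at 2.22 and passed (adjusted p = 0.0452, edgeR), as did Parp11, at 0.23. The Parp14 call rests on few untreated reads and on a filter met through the IFN-gamma libraries. It is therefore not read as an effect of thapsigargin. With all libraries Parp11 was at 0.14 ± 0.09 and Parp10 at -0.22 ± 0.59. Parp8 was at -0.00 ± 0.05, so its level after thapsigargin was as flat as after IFN-gamma.

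**Figure D4:**
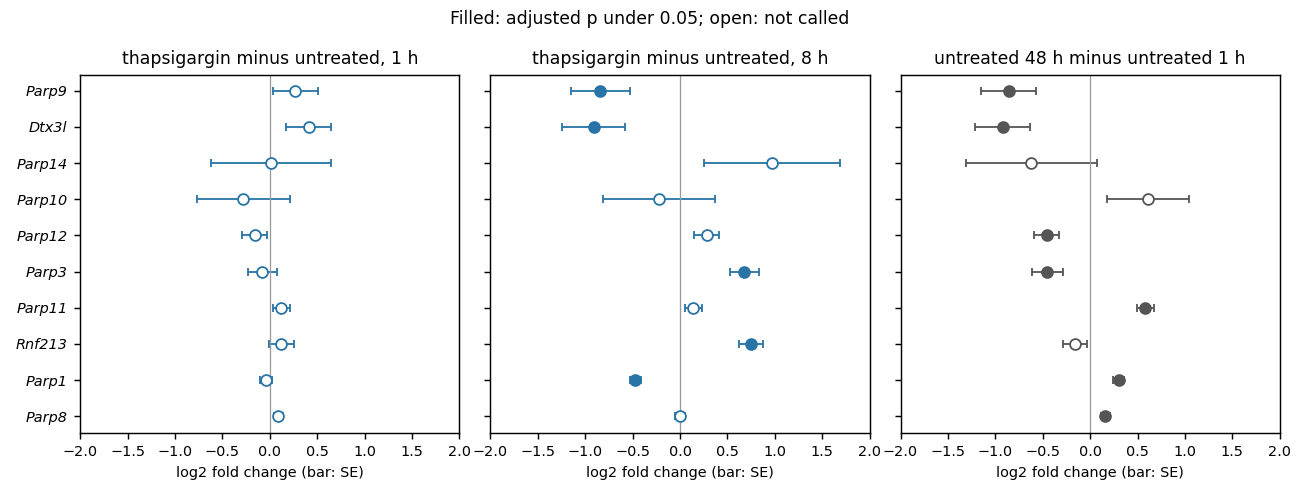
Log2 fold change with its SE for the 10 genes after 1 h and 8 h of thapsigargin against untreated cells, and in untreated cells at 48 h against 1 h; filled points passed an adjusted p of 0.05. After 8 h of thapsigargin Rnf213 (0.75) and Parp3 (0.68) are higher and Parp1 (-0.47), Parp9 (-0.84) and Dtx3l (-0.91) lower, and no point is filled at 1 h.

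The thapsigargin effect itself changed between 1 h and 8 h for 6 of the 10 genes, where 47.4% of all genes passed that test. That count is near the share over all genes. The effect was higher at 8 h than at 1 h by 0.76 ± 0.21 for Parp3, 0.63 ± 0.18 for Rnf213 and 0.44 ± 0.18 for Parp12, and lower by -0.44 ± 0.08 for Parp1, -1.11 ± 0.40 for Parp9 and -1.31 ± 0.40 for Dtx3l (SE, n = 4 libraries in each of 4 groups). The Parp12 value, at an adjusted p of 0.0454 in edgeR, was lost with any of 9 of the 16 libraries left out, where it lay between 0.39 and 0.47. The Parp9 value was lost without untreated 1 h replicate 1 (-0.97), thapsigargin 1 h replicate 4 (-0.99), or thapsigargin 8 h replicate 3 or 4 (-0.88 and -0.95). Lineage markers summed to 2598 to 2827 CPM after 8 h of thapsigargin, against 5728 to 6124 CPM in untreated 8 h cells. Neuronal markers summed to 172 to 193 CPM, against 58.2 to 71.7 CPM, and astrocyte markers to 139 to 178 CPM, against 108 to 142 CPM. Such sums can be carried by a single gene. What part these marker differences have in the changes of the 10 genes was not tested.

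The untreated time course was tested against 1 h. At 8 h against 1 h, 0 of the 10 genes passed in edgeR or DESeq2, where edgeR called 6.93% of all genes, and 1 (Parp11) had an unadjusted p under 0.05. At 24 h against 1 h, Parp11 alone rose (0.40 ± 0.09, adjusted p = 0.00115, edgeR), where 28.3% of all genes passed. Parp1 stood just short of the threshold at 24 h (0.15 ± 0.06, adjusted p = 0.0516, edgeR), passed at 0.18 or 0.19 when replicate 1, 2 or 4 of the 1 h group or replicate 1, 2 or 3 of the 24 h group was left out, and Parp8 passed at 0.17 without untreated 1 h replicate 4. At 48 h against 1 h, 3 genes rose, 4 fell and 3 did not pass, where 62.3% of all genes passed. Parp10 and Parp14 are among the 3 that did not pass, and met the low-count filter only through their IFN-gamma levels.

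The genes that rose by 48 h were Parp11 (0.58 ± 0.09, adjusted p = 6.08e-07), Parp1 (0.30, adjusted p = 3.49e-05) and Parp8 (0.16, adjusted p = 0.00918), all in edgeR. Parp11 had 30.96, 27.6, 30.2 and 31.8 CPM at 48 h, against 20.04, 22.2, 19.1 and 19.1 CPM at 1 h, without overlap. Parp1 had 790, 629, 716 and 710.5 CPM at 48 h, above its 1 h mean of 576 ± 5.69 CPM (SD, n = 4) in each library.

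The genes that fell by 48 h were Dtx3l (-0.92 ± 0.29, adjusted p = 0.00551), Parp9 (-0.86 ± 0.29, adjusted p = 0.0103), Parp12 (-0.46 ± 0.13, adjusted p = 0.0032) and Parp3 (-0.45 ± 0.16, adjusted p = 0.0141), by edgeR. Dtx3l had 0.681, 1.09, 0.860 and 0.577 CPM at 48 h, against 1.73, 1.90, 1.44 and 1.08 CPM at 1 h, with 1 library of the later group just above the lowest of the earlier. Parp12 had 3.46, 5.79, 3.13 and 3.75 CPM at 48 h, against 5.48, 5.39, 5.89 and 5.77 CPM at 1 h. Its untreated 48 h replicate 2 was at the 1 h level while the other 3 were lower. In the same library the lineage markers summed to 5167 CPM, against 6111, 6702 and 7029.8 CPM in replicates 1, 3 and 4. Parp9 no longer passed when replicate 2 of the 1 h group (-0.65) or replicate 3 of the 48 h group (-0.53) was left out. Parp3 no longer passed when replicate 3 of either group was left out (-0.35 for 1 h, -0.28 for 48 h).

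Beyond the 10 genes, 42 of 45 genes in 6 lists of related function passed the filter, and in these IFN-gamma was tested. In all, 1, 14, 14 and 16 of the 42 passed at 1, 8, 24 and 48 h, where 1.29%, 25.2%, 23.1% and 36.8% of all genes did. The counts at 1 and 48 h are near those shares, and 5 of the calls at 8, 24 and 48 h are genes of ISG15 conjugation. Of the 8 other PARP-family genes, 3 rose and 1 fell after 8 h of IFN-gamma. Zc3hav1, the catalytically inactive zinc-finger antiviral protein, had 95.1 ± 3.82 CPM after 8 h of IFN-gamma and 9.31 ± 0.570 CPM in untreated 8 h cells (SD, n = 4), so the log2 fold change was 3.35 ± 0.14 (adjusted p = 1.04e-20, edgeR; error as SE), with 3.74 at 24 h and 4.68 at 48 h. Parp4, the PARP of vault particles, had 5.005 ± 1.12 CPM and 0.633 ± 0.268 CPM in the same groups, at 2.94 ± 0.30 (SE; adjusted p = 4.97e-10, edgeR), with 1.79 at 24 h and 1.47 at 48 h.

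The remaining family members moved little with IFN-gamma. Parp6 rose by 0.25 and Tiparp, a target of the aryl hydrocarbon receptor, fell by 0.29 at 8 h, and Tiparp also fell at 1 h, by 0.31. The 1 h Tiparp call was lost, at -0.32 to -0.26, without any 1 of 7 of the 8 libraries (all but IFN-gamma replicate 2), and the 8 h call without untreated 8 h replicate 3 (-0.22). Parp2, which like Parp1 responds to DNA breaks, rose by 0.25 at 24 h and 0.35 at 48 h; the 24 h call was lost when replicate 3 with IFN-gamma (0.22) or replicate 4 of untreated cells (0.21) was left out. The tankyrase Tnks2 fell by 0.28 at 24 h and by 0.48 at 48 h, and its relative Tnks fell by 0.30 at 48 h. Parp16, a PARP of the endoplasmic reticulum, did not pass at any of the 4 times.

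Of the other lists, only ISG15 conjugation passed in full at 8, 24 and 48 h of IFN-gamma. All 5 of its genes (the ubiquitin-like modifier Isg15, its enzymes Uba7, Ube2l6 and Herc6, and the protease Usp18) rose at those times, and 0 of 5 passed at 1 h in edgeR or DESeq2, with 0 at an unadjusted p under 0.05. The list's median log2 fold change was 7.42 at 8 h, against -0.03 over all genes tested. Isg15 had 31.7 ± 3.38 CPM after 8 h of IFN-gamma (SD, n = 4) and no read in the untreated 8 h libraries, at least 741-fold higher with a floor of 3 reads over the group. In NAD synthesis, Nampt, the rate-limiting enzyme of NAD salvage, rose to 496 ± 14.8 CPM after 8 h of IFN-gamma, against 141 ± 12.0 CPM untreated (SD, n = 4), at 1.81 ± 0.07 (SE; adjusted p = 5.32e-22, edgeR). Nmnat2 fell by 1.03 and Nmrk1 by 0.66, and the other 6 of 9 measured NAD genes did not pass at 8 h.

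Of the 7 measured genes that remove ADP-ribose, 1 passed at 8 h of IFN-gamma (Macrod2, which fell by 0.26). That call was lost when replicate 4 with IFN-gamma (-0.17), or either of replicates 1 and 2 of untreated cells (-0.22 and -0.21), was left out. At 1, 24 and 48 h 0 of the 7 passed in edgeR or DESeq2, with 2, 0 and 1 at an unadjusted p under 0.05. Of the 4 other Deltex ligases, Dtx4 rose at 8, 24 and 48 h, by 0.80, 0.69 and 0.90. Of the 9 genes of DNA repair that depends on Parp1, 0 passed at 1 and 8 h in edgeR or DESeq2, with 1 and 2 at an unadjusted p under 0.05. One of the 9 passed at 24 h (Hpf1, 0.32) and 2 at 48 h (Aplf, 0.34, and Lig3, -0.17). Hpf1 was lost when either of replicates 1 and 4 with IFN-gamma, or replicate 4 of untreated cells, was left out (0.27, 0.31 and 0.21). Aplf was lost when replicate 1 with IFN-gamma, or either of replicates 1 and 3 of untreated cells, was left out (0.25, 0.27 and 0.28). Lig3 was lost when replicate 1 of either group was left out (-0.12 with IFN-gamma, -0.13 untreated).

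**Figure D5:**
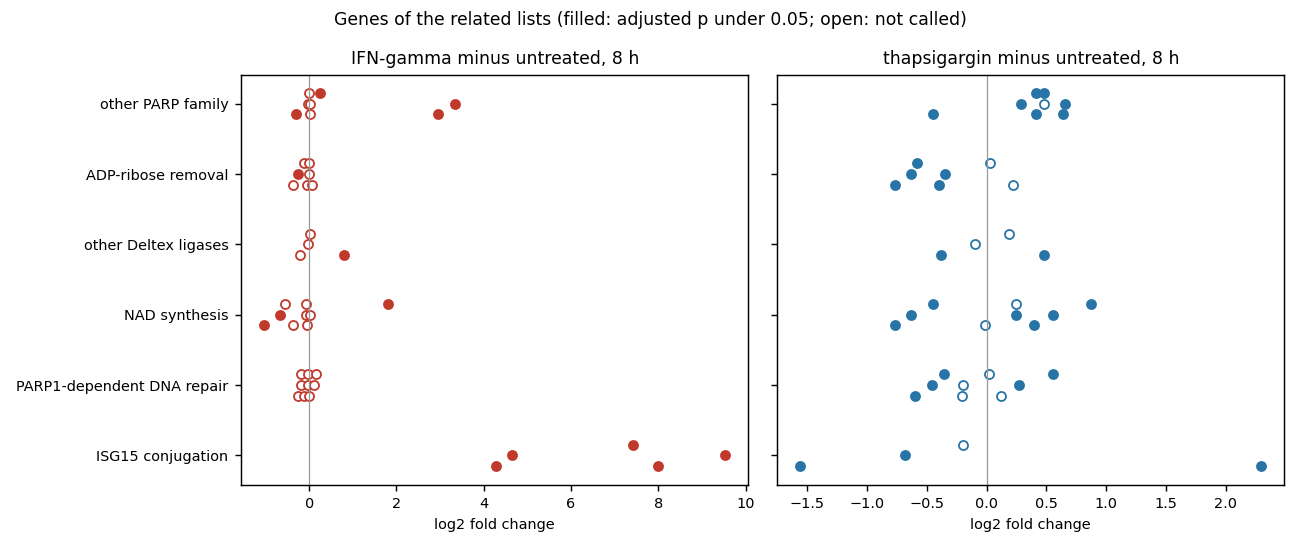
Log2 fold change of each measured gene of the 6 related lists after 8 h of IFN-gamma and after 8 h of thapsigargin, against untreated 8 h cells. Filled points passed; Isg15, with no untreated read, is drawn at its lower bound of 9.53 for IFN-gamma and left out for thapsigargin. All 5 ISG15 conjugation genes are higher after IFN-gamma, with Zc3hav1 (3.35), Parp4 (2.94) and Nampt (1.81) the largest in the other lists.

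After 8 h of thapsigargin, 29 of the 42 genes passed, 14 of them higher and 15 lower, where 60.6% of all genes passed. Of all 15135 genes tested, 4482 were called higher and 4692 lower. In the PARP family 6 of 8 rose (Parp16 by 0.66, Zc3hav1 by 0.64, and Tnks, Tnks2, Parp6 and Parp2 by less) and Tiparp fell by 0.45. Parp16 had 3.40 ± 0.375 CPM after 8 h of thapsigargin and 2.15 ± 0.351 CPM in untreated 8 h cells (SD, n = 4; adjusted p = 0.00109, edgeR). Of the 7 genes that remove ADP-ribose, 5 fell and 0 rose, with Oard1 at -0.77, Macrod2 at -0.63 and Nudt16 at -0.58. In NAD synthesis 4 of 9 rose and 3 fell, with Nmnat3 at 0.87, Nmrk1 at -0.77 and Nmnat2 at -0.63. Of the 5 ISG15 conjugation genes, Usp18 rose by 2.30, Ube2l6 fell by 1.56 and Herc6 fell by 0.68. Isg15 had 2 reads in the thapsigargin 8 h libraries and 0 in the untreated ones, so no change of it is read. Usp18 was not called within the lower 20 library numbers (1.91), nor Herc6 within the upper 20 (-0.46). In DNA repair 2 of 9 rose and 3 fell, with Chd1l at -0.60, Aptx at 0.56 and Xrcc1 at -0.46.

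After 1 h of thapsigargin 4 of the 42 passed, where 8.79% of all genes did, with Tiparp (0.44), Parp6 (0.40) and Nadsyn1 (0.68) higher and Nadk (-0.19) lower. The Nadk call was lost without thapsigargin 1 h replicate 3 or 4 (-0.17 and -0.16). In untreated cells at 48 h against 1 h, all 8 other PARP-family genes passed, 4 higher and 4 lower, where 62.3% of all genes passed. They ranged from Zc3hav1 at -1.42 to Parp4 at 1.27.

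Across the 40 libraries, Parp12 and Rnf213 had the most similar log2 levels of any pair of the 10 genes (Pearson's r = 0.995), and Parp9 and Dtx3l had r = 0.991. Parp1 had r between -0.407 and -0.203 with the 8 induced genes, and Parp8 between 0.303 and 0.420. Among 11746 other genes, the nearest to Parp12 were Erap1 (0.997), Psmb10 and Tap2, and the same 3 were nearest to Rnf213. The nearest to Parp10 were Tapbp (0.992), Psme1 and Gbp4, and to Parp11 Tapbp (0.991), Camk4 and H2-T23. The nearest to Parp9 were Tgtp1 (0.989), Eif2ak2 and Zfp521, to Dtx3l Tgtp1 (0.992), Gm4951 and Eif2ak2, to Parp14 Ifi47 (0.990), Tgtp2 and Tgtp1, and to Parp3 Socs1 (0.986), Gna13 and Tgtp2. Parp1 lay nearest to Gal3st1 (0.965), Gatm and Folr2, and Parp8 to Ezh1 (0.750), Kdm3a and Fchsd1. These values are descriptions: all points share the same 10 groups, and 12 of the 40 libraries carry the IFN-gamma levels from 8 h on.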

How the data were processed

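Oligodendrocyte-lineage RNA was sequenced in 40 libraries, grouped by the treatment and time in the labels. The authors deposited whole-number counts per gene. They also deposited estimated counts per transcript, which need not be whole. The submitters' processing notes name STAR, featureCounts, kallisto and edgeR. For these tools the version and role, and for the counts the build, annotation and strandedness, were not given in the sources used here.

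Counts of 39056 gene identifiers, 38872 with a symbol, were fitted as deposited with edgeR 4.0.16 (R 4.3.3): TMM scaling, filterByExpr by group, 1 mean for each of 10 groups over all 40 libraries, 30 residual degrees of freedom, and the quasi-likelihood test with Benjamini-Hochberg adjustment over 15135 genes. A call is an adjusted p under 0.05. The prior count behind log2 fold changes was 0.125, and SE is the fold change over the root of F. Likeness used log2 CPM with a prior count of 2. Some genes are not reported here and were left out of the marker sums and the likeness search. Depth limits low genes: 3 reads over a group is the floor, which covers counting error only. Of 112588 transcripts, 112029 matched GENCODE M21, the lengths and overlaps of which were used; sums were rounded for the alternative fit. The script was tested on simulated data for thapsigargin at 8 h, with changes set in genes of at least 50 expected reads. It recovered 74% of 1.5-fold and 99% of 2-fold changes. That setting does not cover changes in genes with fewer reads.

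The 10 genes and the related and marker lists were chosen with earlier results of these data known. Named are all 10 genes, all other PARP-family genes that passed, up to 3 called genes per other list with the largest change, the 3 nearest genes per member, and transcripts with at least 10% of a gene's estimated count in a group. Alternatives were RLE factors, DESeq2 1.42.0, no filter, only the groups compared, a library-number term, the isoform table, a Y-linked covariate, each library left out, and 2 added after seeing the data: each range of 20 library numbers alone, and without the libraries low in Y-linked genes. P-values rest on between-library spread alone.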

Additional observations from a re-analysis of the deposited data

Results flagged for a closer look

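In 7 of the 100 sets of 4 libraries (10 genes in 10 groups), 1 library stood far from the other 3; chance gives such a library in about 1 of 20 sets. Parp14 had 0.577 CPM in untreated 8 h replicate 2, from 13 reads, while the other 3 libraries were between 0.0714 and 0.147 CPM. Without it the thapsigargin difference of Parp14 at 8 h was 2.22 in place of 0.97. Dtx3l had 9.15 CPM in IFN-gamma 1 h replicate 3, while the others were between 4.43 and 4.88 CPM, and 263 CPM in IFN-gamma 24 h replicate 1, with the others at 315 to 323 CPM. Parp14 had 588 CPM in IFN-gamma 8 h replicate 2, with the others at 531 to 535 CPM. Parp9 had 255 CPM in IFN-gamma 48 h replicate 2, with the others at 274 to 276 CPM. Parp10 had 115 CPM in IFN-gamma 24 h replicate 2, with the others at 122 to 123 CPM. Parp8 had 84.5 CPM in thapsigargin 8 h replicate 1, with the others at 87.3 to 87.9 CPM. The cause of these was not tested.

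The effect of thapsigargin differed between 8 h and 1 h, by a test of that difference, for 6 genes, where 47.4% of all genes passed. That count is near the share over all genes. On the log2 scale it differed by 0.76 for Parp3, 0.63 for Rnf213, 0.44 for Parp12, -0.44 for Parp1, -1.11 for Parp9 and -1.31 for Dtx3l. The Parp12 and Parp9 calls were lost with some single libraries left out. With the isoform table Parp12, Dtx3l and Rnf213 were not called.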

How the results depend on the processing

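Results were recomputed under 10 other settings and with each library left out in turn. The called directions of the 10 genes did not change in any of these, and among the related genes Polb alone turned, at -0.02 (not called) for untreated 48 h against 1 h in the lower 20 library numbers. No paired analysis was run because the labels give no replicate number shared across groups. The order of Y-linked levels over the libraries of a group recurred at 8, 24 and 48 h of IFN-gamma, but whether those libraries share a culture is not given. A term for the lower and upper 20 library numbers of the labels, which do not call these a batch, changed 1 of 60 calls. Of the 10 genes, the number called in untreated cells at 24 h was 1, and 2 with RLE factors, DESeq2, only the groups compared, the library-number term, the upper 20 numbers alone or without the libraries low in Y-linked genes, and 0 in the lower 20 alone. At 48 h it was 7, and 3 in the lower 20 alone. For the thapsigargin effect at 8 h against 1 h it was 6, and 3 with the isoform table or the lower 20 alone. Related genes called after 1 h of IFN-gamma numbered 1, and 0 with no filter, the isoform table, the Y-linked covariate, the lower 20 alone or without the libraries low in Y-linked genes; after 24 h they numbered 14, and 9 in the lower 20 alone. After 1 h of thapsigargin they numbered 4, and 2 in the lower and 1 in the upper 20 alone. In untreated cells at 8 h they numbered 4, and 2 with no filter or the isoform table and 0 in either range alone; at 24 h 11, and 6 with the isoform table and 1 in the lower 20 alone. Leaving out single libraries gave ranges of 1 to 3 of the 10 genes and 8 to 12 related genes in untreated cells at 24 h, 0 to 1 related genes after 1 h of IFN-gamma and 2 to 5 in untreated cells at 8 h. For thapsigargin at 8 h it gave 4 to 6 of the 10 genes. Within the lower 20 numbers Parp9 was at -0.51 after 8 h of thapsigargin, and within the upper 20 Dtx3l was at -0.33, neither called. Fitted on only the groups compared, Parp9 (-0.89) and Parp12 (-0.48) were no longer called in untreated cells at 48 h. In that setting Parp10 fell below the low-count filter in every test, and Parp14 in all but the thapsigargin effect at 8 h against 1 h. Some related genes also fell below it there, with 364 of 378 results left. With the isoform table Dtx3l was no longer called in untreated cells at 48 h (-0.42), nor were Dtx3l (-0.32), Rnf213 (0.46) and Parp12 (0.35) for the thapsigargin effect at 8 h against 1 h. In that table the 8 h IFN-gamma difference of Dtx3l was 6.63, against 7.99 in the gene counts. The cause of these changes was not tested. Low counts limit untreated Parp9, Dtx3l, Parp10 and Parp14.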
